A study of Mus musculus with 4 samples.

Results

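The 10 genes described here are outputs and feedback brakes of the MAPK pathway: the dual-specificity phosphatase genes *Dusp4*, *Dusp5* and *Dusp6*, the Sprouty family genes *Spry1*, *Spry2*, *Spry4* and *Spred1*, the ETS transcription factor genes *Etv4* and *Etv5*, and the AP-1 subunit gene *Fosl1*. They were taken by name, and all 10 were found once each among the 23746 rows of the gene tables. Their RNA was compared in 4 primary mammary tumors of female mice, and set beside that of *Met*, the gene of the hepatocyte growth factor receptor. 2 tumors (26043 and 26044) came from WapCre;Rank;Brca1;p53 triple-mutant females and 2 (26048 and 26050) from WapCre;Brca1;p53 double-mutant females. Both genotypes carry the WapCre transgene, whose Cre is active in luminal and basal mammary epithelial cells, together with floxed alleles of *Brca1* and *p53*, and the triple mutants also carry floxed *Rank*. The alleles are deleted only where Cre was active, and stromal cells of a tumor keep them. The age of the females and the grade of the sequenced tumors are not given in the labels. Each library was made from polyA mRNA, and the values are FPKM, read fragments per kilobase of transcript scaled to all mapped fragments.

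In the MAPK pathway, activated growth factor receptors such as MET start a chain of kinases that ends in ERK, which phosphorylates transcription factors in the nucleus. Among the genes that ERK activity switches on are its own brakes. DUSP4 and DUSP5 dephosphorylate ERK in the nucleus and DUSP6 does so in the cytoplasm, while Sprouty and SPRED proteins act upstream of the kinases. ETV4 and ETV5 belong to the PEA3 subfamily of ETS factors and FOSL1 (FRA-1) joins JUN proteins in AP-1. Because these genes answer ERK signaling in many cell types, their RNA is commonly read as a record of pathway output, and in the mammary gland the pathway acts downstream of several receptors of epithelial growth and branching.

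Promoter sequence was examined because ETS factors, AP-1 and serum response factor are the best known nuclear targets of the pathway. RefSeq entries (GRCm38.p6) were found for 6 of the 10 genes and for *Met*. The 250 bases before the start were searched on both strands for the ETS core GGAAG, the AP-1 site TGANTCA, the CRE half-site TGACG and, by name, the CArG box bound by serum response factor, and no matches of different motifs overlapped in the promoters printed. Of 32851 such windows of all genes, 64.1% held the ETS core, 6.75% the AP-1 site, 17.8% the CRE half-site and 1.47% a CArG box. Shown are 3 genes that were highest in tumor 26044 (*Dusp5*, *Dusp6* and *Spred1*), *Spry2*, which was lowest there, and *Met*. Each is printed 5′ to 3′ on the strand of its gene, with the matches in capitals. The windows are chr19:53528895-53529144 (plus strand) for *Dusp5*, chr10:99262981-99263230 (plus) for *Dusp6*, chr2:117120821-117121070 (plus) for *Spred1*, chr14:105896820-105897069 (minus) for *Spry2* and chr6:17463707-17463956 (plus) for *Met*. The RefSeq start lay 173 bases before the start in the authors' tables for *Dusp5* and 379 bases before it for *Spred1*.
Dusp5: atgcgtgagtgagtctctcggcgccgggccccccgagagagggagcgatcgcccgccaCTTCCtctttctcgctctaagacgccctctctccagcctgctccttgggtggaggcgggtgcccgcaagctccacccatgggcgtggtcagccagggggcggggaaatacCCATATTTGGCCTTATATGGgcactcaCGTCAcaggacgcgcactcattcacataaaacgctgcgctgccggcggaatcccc
Dusp6: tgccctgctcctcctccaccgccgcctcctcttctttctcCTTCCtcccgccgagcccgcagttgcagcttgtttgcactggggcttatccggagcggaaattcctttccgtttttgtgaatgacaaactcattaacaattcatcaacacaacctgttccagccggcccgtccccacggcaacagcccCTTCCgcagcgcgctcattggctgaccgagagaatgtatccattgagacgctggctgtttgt
Spred1: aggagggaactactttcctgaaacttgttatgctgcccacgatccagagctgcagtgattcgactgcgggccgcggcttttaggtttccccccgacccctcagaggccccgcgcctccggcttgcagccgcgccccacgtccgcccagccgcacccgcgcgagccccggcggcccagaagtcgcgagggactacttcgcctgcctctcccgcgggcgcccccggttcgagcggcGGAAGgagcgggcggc
Spry2: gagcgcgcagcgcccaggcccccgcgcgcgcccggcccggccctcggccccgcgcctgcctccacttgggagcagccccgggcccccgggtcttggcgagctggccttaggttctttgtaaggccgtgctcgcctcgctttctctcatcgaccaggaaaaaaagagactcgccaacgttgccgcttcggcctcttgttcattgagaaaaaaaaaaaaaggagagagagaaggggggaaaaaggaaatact
Met: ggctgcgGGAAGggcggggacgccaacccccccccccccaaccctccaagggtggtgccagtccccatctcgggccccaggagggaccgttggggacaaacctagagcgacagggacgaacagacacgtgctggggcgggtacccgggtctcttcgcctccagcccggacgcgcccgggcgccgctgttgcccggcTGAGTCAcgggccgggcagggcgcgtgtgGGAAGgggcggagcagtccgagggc

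The *Dusp5* window held 2 CArG boxes next to each other, CCATATTTGG from position -82 to -73 and CCTTATATGG from -72 to -63 before the start, with 1 ETS core and 1 CRE half-site. *Dusp6* held 2 ETS cores and *Spred1* held 1. The bases after the *Spred1* start were not found near the start of a GENCODE transcript of that gene. Those of the other promoters printed were. *Spry2* and *Spry1* held none of these letters, and neither did *Etv5* at the start used in the authors' tables, but a further RefSeq start of *Etv5* on the minus strand (window chr16:22438369-22438618) had 2 ETS cores. The *Met* window held 2 ETS cores and the AP-1 letters TGAGTCA from -54 to -48. These are matches of letters in a short window, and they show nothing about binding in the tumors.

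The targeted gene *Rank* (*Tnfrsf11a*) had 2.07 and 0.96 FPKM in the triple-mutant tumors and 10.6 and 11.9 FPKM in the double-mutant tumors, so the labels and the RNA go the same way. Between 12150 and 12681 genes per tumor had at least 1 FPKM. The number of reads per tumor is unknown, and Cufflinks' own interval had a median half-width of 8.35% to 8.78% of its midpoint over those genes. Of 40 values (10 genes in 4 tumors), 27 lay outside the interval printed beside them, so the midpoint of the interval was tried in place of the FPKM, and all 10 genes kept the same order of the 4 tumors. Tumor 26044 stood apart in epithelial RNA. The summed FPKM of 5 epithelial markers (*Epcam*, *Krt8*, *Krt18*, *Krt19* and *Cdh1*) was 408 there and 1874 to 2803 in the other tumors, with 4 of the 5 at their lowest there, all but *Krt19*, and none at 0, and *Epcam* was at 25.7 FPKM against 347 to 516. The sum of 5 endothelial markers (*Pecam1*, *Cdh5*, *Kdr*, *Tek* and *Emcn*) was 78.1 in tumor 26044 and 24.7 to 43.8 in the others, with 4 of the 5 at their highest there, all but *Tek*, and none at 0 in any tumor. The double-mutant tumors stood apart in other markers. Adipocyte markers (*Adipoq*, *Plin1*, *Fabp4* and *Cidec*) were all highest in tumor 26048. Their sum was 1390 FPKM there and 7.58 to 261 in the others. Skeletal muscle markers (*Acta1*, *Ckm*, *Myh4* and *Tnnt3*) were all highest in tumor 26050, with a sum of 28.9 FPKM against 0.63 to 0.69. *Adipoq*, *Plin1* and *Myh4* were at 0 in tumor 26044. In bulk tumors, fewer cells of a type and less RNA per cell cannot be told apart.

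*Met* differed more between genotypes than any of the 10 genes. It had 726 and 386 FPKM in the double-mutant tumors 26048 and 26050, but 13.2 and 0.66 FPKM in the triple-mutant tumors 26043 and 26044. The genotypes did not overlap, and the highest tumor had 1098 times the FPKM of the lowest. That fold rests on a lowest value under 1 FPKM. *Met* lay outside its Cufflinks interval in all 4 tumors, where the midpoints were 841, 460, 16.9 and 0.86 FPKM in the same order of tumors. The log2 fold change, triple-mutant minus double-mutant on the log2(FPKM + 1) scale, was -6.77 (standard error 1.10), and the adjusted p was 0.231 in limma with Benjamini-Hochberg adjustment over 12752 genes. *Met* (chromosome 6 from 17463957 to 17573980, GRCm38) was not alone on its chromosome. The genes around it had a median log2 fold change of -1.86 over 10 tested neighbors, and *Capza2*, which lies next to it and codes for an actin capping protein, had 1409.9 and 1295.4 FPKM in the double mutants and 76.7 and 44.5 FPKM in the triple mutants (log2 fold change -4.51, standard error 0.36, adjusted p = 0.143 in limma). *Naa38* (now *Lsm8*, an RNA-binding LSM protein) and the caveolin gene *Cav2*, also from the *Met* region, had log2 fold changes of -3.19 and -2.22, and neither passed the threshold. The region did not move as a whole. *Cav1*, the caveolin gene beside *Cav2*, had 42.4 and 55.98 FPKM in the triple mutants and 32.3 and 27.6 FPKM in the double mutants. Its log2 fold change was 0.69. *Mdfic* and *Cttnbp2* overlapped between genotypes, with log2 fold changes of -0.09 each. The standard error of *Cttnbp2* was 1.04. This gene had 7.40 and 0.07 FPKM in double-mutant tumors 26048 and 26050 and 1.33 and 2.40 FPKM in the triple mutants. *Tes* had 801 FPKM in tumor 26050 and 23.6 to 51.4 in the others. *St7* had 71.9 FPKM in tumor 26048 and 10.2 to 15.1 in the others. Of 13 listed genes of the region 8 were tested, 0 passed and 5 did not overlap, 1 higher in the triple mutants and 4 in the double mutants (44.3% of all tested genes did not overlap). *Cav1*, *Mdfic*, *Cttnbp2*, *Tes* and *St7* were named after their values were seen.

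Among the 10 output and feedback genes only *Spry2* shared the order of tumors of *Met*, and none came near its size of change. Of all 12752 genes tested, 0 (0%) had an adjusted p under 0.05 in limma, and 0 of the 9 tested members did, with adjusted p between 0.690 and 0.965. Before adjustment, 1252 genes (9.82%) and 0 members had a p under 0.05. *Fosl1* stayed under the filter of 1 FPKM in at least 2 tumors and has no test in this fit. Across the 9 tested members, 5 log2 fold changes were above 0 and 4 below, with a median of 0.05 beside -0.02 over all genes, and the median size was 0.22 beside 0.38. The largest was 0.49, that of *Etv5*. Values of the genotypes did not overlap in 44.3% of all tested genes, with 21.3% higher in the triple mutants and 22.9% higher in the double mutants. Among the tested members this held for 1 of 9, *Spry2*, which was higher in the double mutants. Each member's fold change was smaller than the difference between the 2 triple-mutant tumors in 9 of 9 cases, which was true of 55.9% of all tested genes. For a single gene, exact permutation of 2 against 2 tumors cannot go below p = 0.333, and an adjusted p over 0.05 does not show that the genotypes were alike.

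**Figure D1:**
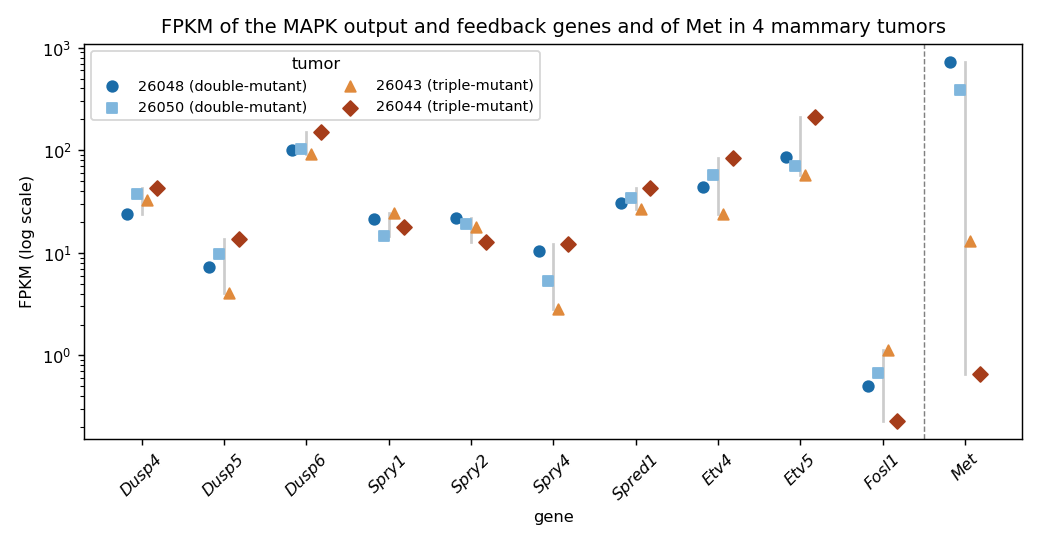
FPKM (log axis) of the 10 output and feedback genes and, right of the dashed line, of Met, with a symbol for each of the 4 tumors and a gray line from the lowest to the highest. Met runs from 0.66 to 726 FPKM with the double-mutant tumors on top, whereas the tumors of both genotypes are mixed in all members except Spry2.

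Among the phosphatase genes, *Dusp6* (chromosome 10 from 99263231 to 99267489) was the most abundant, with 91.3 and 151 FPKM in triple-mutant tumors 26043 and 26044 and 99.5 and 104 FPKM in double-mutant tumors 26048 and 26050. Both double-mutant tumors lay between the triple-mutant tumors. Its means were 121 ± 42 FPKM (SD, n = 2) and 102 ± 3 FPKM (SD, n = 2), and limma gave a fold change of 0.20 log2 units (standard error 0.34) with an adjusted p of 0.855. *Dusp4* (chromosome 8 from 34807610 to 34819894), which codes for a nuclear phosphatase of ERK and other MAP kinases, had 33.0, 42.6, 23.7 and 37.6 FPKM in the same order of tumors. The genotypes overlapped, and the lowest value was that of double-mutant tumor 26048. *Dusp5* (chromosome 19 from 53529318 to 53541322), whose product is specific for ERK, had 4.08 and 13.6 FPKM in triple-mutant and 7.22 and 9.80 FPKM in double-mutant tumors. The triple-mutant pair thus differed 3.32-fold and enclosed the double-mutant pair, which differed 1.36-fold. Log2 fold changes were 0.32 (standard error 0.35) for *Dusp4* and -0.13 (standard error 0.60) for *Dusp5*.

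Among the Sprouty family genes, *Spry2* (chromosome 14 from 105891947 to 105896819), an inhibitor of receptor signaling, was highest in the double mutants. It had 22.1 and 19.0 FPKM in double-mutant tumors 26048 and 26050 and 17.9 and 12.9 FPKM in triple-mutant tumors 26043 and 26044. The log2 fold change was -0.41 (standard error 0.31, adjusted p = 0.690 in limma). The gap between tumors 26050 and 26043 was small, and after rescaling to TPM the genotypes overlapped. Its order of tumors was that of *Met*, an order found in 7.45% of all tested genes while 0 of the 10 members had the reverse order, seen in 4.67%. *Spry1* (chromosome 3 from 37639950 to 37644599) had 24.2, 17.8, 21.1 and 14.7 FPKM in tumors 26043, 26044, 26048 and 26050, with overlapping genotypes and a log2 fold change of 0.22 (standard error 0.34). *Spry4* (chromosome 18 from 38586265 to 38601268) varied more, with 2.87 and 12.2 FPKM in triple-mutant and 10.4 and 5.37 FPKM in double-mutant tumors. It was 4.26-fold apart within the triple-mutant pair and 1.93-fold apart within the double-mutant pair. *Spred1* (chromosome 2 from 117121450 to 117179336), whose product holds back the pathway at the membrane, had 26.5 and 42.9 FPKM in triple-mutant and 30.8 and 34.2 FPKM in double-mutant tumors. Again the triple-mutant tumors enclosed the double-mutant tumors, and the log2 fold change was 0.05 (standard error 0.34).

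After *Spry4*, the ETS factor genes had the widest folds between the triple-mutant tumors among the tested members. *Etv5* (chromosome 16 from 22381313 to 22439570) had 56.9 FPKM in tumor 26043 and 210 FPKM in tumor 26044, and 85.9 and 69.9 FPKM in the double-mutant tumors. Tumor 26044 was 2.44-fold above the next highest tumor. The triple-mutant mean was 133 ± 108 FPKM (SD, n = 2) and the double-mutant mean 77.9 ± 11.3 FPKM (SD, n = 2). In limma *Etv5* differed by 0.49 log2 units (standard error 0.67, adjusted p = 0.817). Without tumor 26044 it was -0.44 and without tumor 26043 it was 1.43, so the sign rests on which triple-mutant tumor is kept. *Etv4* (chromosome 11 from 101769742 to 101785310) had 23.9 and 84.4 FPKM in triple-mutant and 43.8 and 57.2 FPKM in double-mutant tumors. Its log2 fold change of -0.15 (standard error 0.65) became -1.04 without tumor 26044 and 0.74 without tumor 26043.

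*Fosl1* (chromosome 19 from 5447698 to 5455938) was low in every tumor. It had 1.14 and 0.23 FPKM in triple-mutant and 0.50 and 0.68 FPKM in double-mutant tumors, and its row overlaps that of *Ccdc85b*. With no filter on low values, its log2 fold change in limma was 0.03 (standard error 0.32, adjusted p = 0.984 over 19078 genes). Tumor 26044, the highest for *Etv4* and *Etv5*, was the lowest for *Fosl1*.

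**Figure D2:**
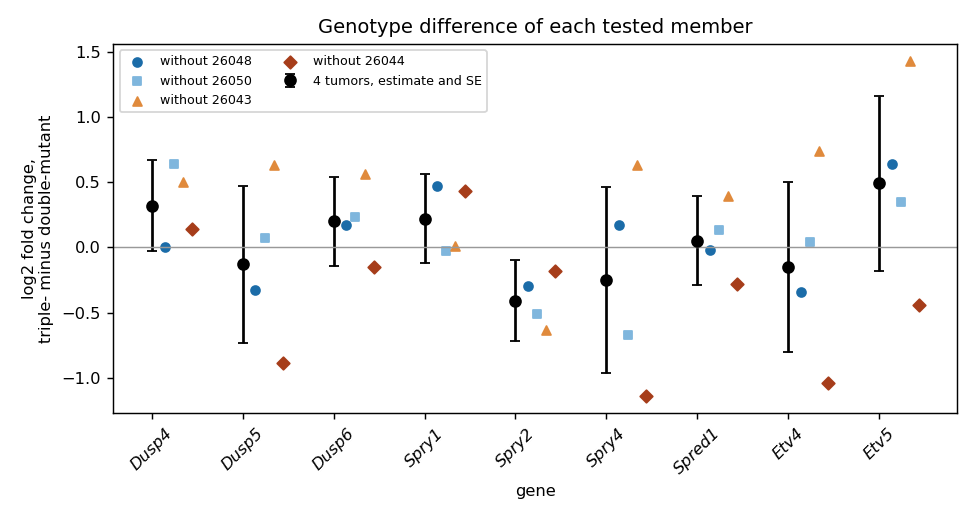
Log2 fold change on the log2(FPKM + 1) scale, triple-mutant minus double-mutant, of the 9 tested members (black points, bars are the standard error from limma), with the value after each tumor was left out in turn beside it. Leaving out tumor 26044 or tumor 26043 moves Etv4 from -1.04 to 0.74 and Etv5 from -0.44 to 1.43.

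Most members were higher in triple-mutant tumor 26044 than in triple-mutant tumor 26043, while *Spry1*, *Spry2* and *Fosl1* went the other way. Tumor 26044 was the highest of the 4 for 7 of the 10 genes (*Dusp4*, *Dusp5*, *Dusp6*, *Spry4*, *Spred1*, *Etv4* and *Etv5*), all of them among the 9 tested, beside 24.2% of all tested genes. For 6 of these 7, all but *Dusp4*, tumor 26043 was the lowest, beside 15.1% of all tested genes, and both extremes together were seen in 4.78%. Tumor 26043 was the highest for *Spry1* and *Fosl1* (27.9% of all tested genes), tumor 26044 the lowest for *Spry2* and *Fosl1* (39.0%), tumor 26050 the lowest for *Spry1* (28.3%), tumor 26048 the lowest for *Dusp4* (17.6%) and the highest for *Spry2* (23.2%). Relative to each gene's mean of the 4 tumors, the median of the 9 tested members was 0.46 log2 units in tumor 26044 and -0.31 in tumor 26043, beside -0.10 and 0.06 over all tested genes, and it was -0.10 and 0.04 in double-mutant tumors 26048 and 26050. The median difference within the triple-mutant pair was 0.72 log2 units for the members and 0.45 for all tested genes, and within the double-mutant pair 0.38 and 0.36. The triple-mutant pair was the wider for 7 of the 9 tested members, all but *Dusp4* and *Spry1*, beside 58.4% of all tested genes. These are counts over a chosen set of genes with no test, in single tumors. The part of the lower epithelial and higher endothelial marker RNA of tumor 26044 in these values was not tested. The part of the adipocyte and skeletal muscle marker RNA of tumors 26048 and 26050 was not tested either.

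Set against *Met*, the member to *Met* ratio of FPKM was highest in tumor 26044 for each of the 10 genes, since *Met* was at 0.66 FPKM there. The ratio of *Etv5* to *Met* was 317 in tumor 26044, 4.32 in tumor 26043, 0.181 in tumor 26050 and 0.118 in tumor 26048. That of *Dusp6* to *Met* was 228, 6.92, 0.269 and 0.137 in the same order. The spread of the tested members between the lowest and the highest tumor was 1.62-fold to 4.26-fold with a median of 1.80-fold, beside a median of 1.95-fold over the 11059 genes with at least 1 FPKM in all tumors. *Dusp6*, *Spry1*, *Spred1*, *Spry2* and *Dusp4* were below that median, and *Dusp5*, *Etv4*, *Etv5* and *Spry4* above it.

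**Figure D3:**
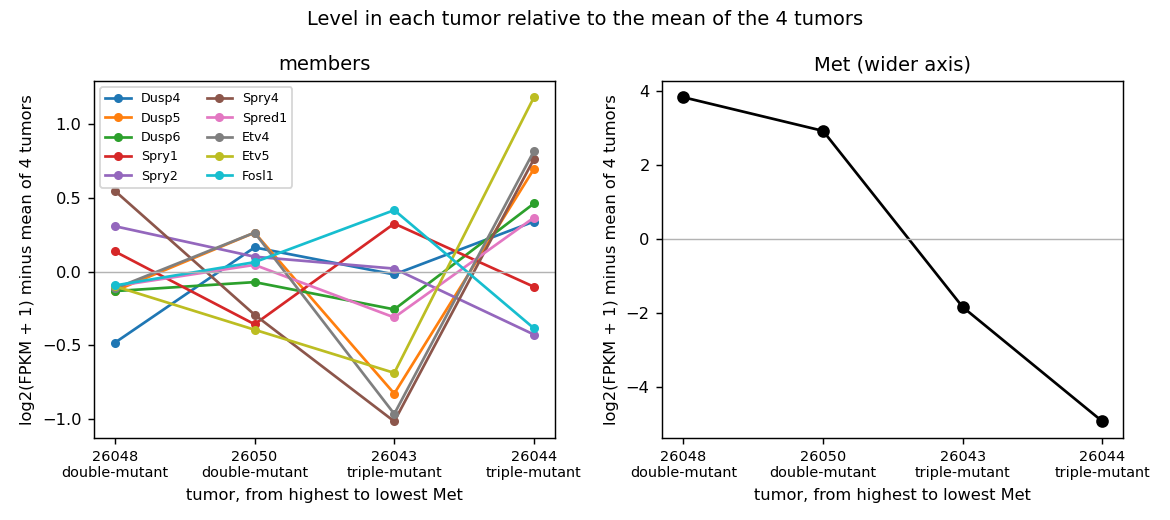
Log2(FPKM + 1) minus the mean of the 4 tumors for each member (left) and for Met (right, on a wider axis), with the tumors placed from the highest to the lowest Met. Met falls from left to right, while most members are lowest in tumor 26043 and highest in tumor 26044.

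The genes that surround the members on their chromosomes differed less between genotypes than those around *Met*. Among the tested genes within 10 rows on either side, the median log2 fold change ran from -0.29 beside *Etv5* to 0.28 beside *Dusp5*. Thus 0 of the 9 tested members had neighbors with a median past 0.5 log2 units in either direction, in contrast to the -1.86 beside *Met*. How many of all tested genes have such neighbors was not computed, so this count is not read as a trait of the members. Without tumor 26044 the neighbors of *Spry2* reached 0.61.

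Other genes of the pathway were read from written lists. Of 16 other feedback regulators 14 were tested, 0 passed the threshold in limma and 6 did not overlap between genotypes, of which 2 were higher in the triple mutants and 4 in the double mutants. That is 42.9% of the list, near the 44.3% of all tested genes. *Errfi1*, whose product (MIG6) inhibits the EGF receptor family, had 129 and 90.9 FPKM in the double mutants and 25.1 and 25.9 FPKM in the triple mutants (log2 fold change -2.05, standard error 0.30, adjusted p = 0.205 in limma). *Dusp9*, an ERK phosphatase of the cytoplasm, and the early response gene *Ier3* had log2 fold changes of -1.82 and -1.56 (standard errors 0.56 and 0.32). These 3 were named as the largest of the list, whose median log2 fold change was -0.16 beside 0.05 for the members. Of 23 genes of the cascade itself (adaptors, kinases and their regulators), all 23 were tested, 0 passed and 8 did not overlap (3 were higher in the triple mutants and 5 lower), which is 34.8% beside 44.3% of all tested genes. Of the 23 cascade genes, 2 were highest in tumor 26044 and 13 lowest there, beside 24.2% and 39.0% of all tested genes. The adaptor gene *Shc1* had 39.9 and 80.0 FPKM in triple-mutant and 38.5 and 26.9 FPKM in double-mutant tumors. Its highest value was in tumor 26044. The GTPase-activating protein gene *Nf1*, a negative regulator, had 3.16 and 8.24 FPKM against 12.1 and 12.4 FPKM, a log2 fold change of -1.10 (standard error 0.48).

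Of 26 other output genes 25 were tested, 0 passed and 9 did not overlap, 4 of them higher in the triple mutants and 5 lower, or 36.0% beside the same 44.3%. *Ccnd1*, the gene of cyclin D1, had 302 and 342 FPKM in the triple mutants and 33.96 and 17.0 FPKM in the double mutants, and its log2 fold change in limma was 3.68 (standard error 0.41, adjusted p = 0.167). *Egr2*, an early growth response factor, had 13.97 and 49.4 against 3.91 and 2.28 FPKM, and *Areg*, the gene of the EGF receptor ligand amphiregulin, had 30.1 and 7.86 against 2.12 and 2.07 FPKM. In the opposite direction, *Phlda1* had 208 and 55.1 FPKM in triple-mutant and 522 and 335 FPKM in double-mutant tumors. *Phlda1*, *Ccnd1* and the ephrin receptor genes *Epha2* and *Epha4* complete, with 6 of the members, a set of 10 genes used elsewhere to score pathway output. Of that set 3 genes did not overlap between genotypes (*Spry2*, *Phlda1* and *Ccnd1*), and they did not share a direction, while 44.3% of all tested genes were without overlap. *Epha2* and *Epha4* overlapped, with log2 fold changes of 0.36 and 0.15.

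Of 17 genes of the receptor list (receptor tyrosine kinases and *Hgf*, the MET ligand gene) 14 were tested, 0 passed and 7 did not overlap, with 5 higher in the triple mutants and 2, *Met* among them, higher in the double mutants. These 7 of 14 stand beside 44.3% of all tested genes. *Fgfr2*, a receptor of fibroblast growth factors, had 44.5 and 25.1 FPKM in the triple mutants and 0.40 and 0.86 FPKM in the double mutants, 4.42 log2 units apart (standard error 0.42, adjusted p = 0.143 in limma). *Pdgfra*, a platelet-derived growth factor receptor and also a fibroblast marker, had 2.90 and 19.1 against 1.63 and 1.44 FPKM. The highest value of *Pdgfra* was thus in tumor 26044, where the summed FPKM of 6 fibroblast markers including it was the lowest, at 112. The sum was 196 in triple-mutant tumor 26043 and 881 and 425 in double-mutant tumors 26048 and 26050. Of the 6 markers, 4 were higher in both double mutants (*Col1a1*, *Col1a2*, *Col3a1* and *Lum*). *Pdgfra* was higher in the triple mutants and *Dcn* overlapped. Basal epithelial markers also moved with the genotype. The summed FPKM of *Krt5*, *Krt14*, *Krt17* and *Trp63* was 1671 and 359 in the triple mutants and 7.71 and 14.5 in the double mutants, with 4 of the 4 higher in the triple mutants and none at 0. The part of this in the values of *Fgfr2*, *Ccnd1*, *Egr2*, *Areg* and the other genes that differed between genotypes was not tested.

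Outside the lists' naming rule, and chosen after their values were seen, relatives of the members were read in tumor 26044. *Spred2*, a close relative of *Spred1*, and *Il17rd* (SEF), an interleukin-17 receptor family gene whose product also holds back ERK signaling, were highest there, with 23.1 FPKM against 12.9 to 15.4 in the other tumors for *Spred2* and 4.44 against 0.68 to 0.85 for *Il17rd*, whereas *Spred3* was highest in tumor 26048. *Dusp8*, *Dusp10* and *Dusp16* code for phosphatases that act mainly on JNK and p38, and are not the only such genes of the list. All 3 were lowest in tumor 26044. That tumor was the lowest for 39.0% of all tested genes. *Dusp8* had 0.66 FPKM there against 5.52 to 7.70 in the others. The other phosphatase genes of the feedback list were mixed. *Dusp7* was also lowest in tumor 26044 (41.5 FPKM against 44.0 to 68.6). *Dusp1* and *Dusp2* were highest there (11.8 against 8.41 to 9.76 and 4.10 against 1.14 to 1.86), and *Dusp9* was highest in tumor 26050. All 7 AP-1 subunit genes read, *Fosl1*, *Fos*, *Fosb*, *Fosl2*, *Jun*, *Junb* and *Jund*, were lowest in tumor 26044, beside 39.0% of all tested genes. *Jund* had 35.1 FPKM there against 88.2 to 108 in the others, and *Fos* had 4.93 against 12.6 to 17.4. *Etv1*, a further ETS factor gene, was highest in tumor 26048. Of the 25 tested genes of the other output list, 14 were lowest in tumor 26044 and 6 highest there. The 14 include the AP-1 genes other than *Fosl1*, and also *Egr1*, *Egr3*, *Ier2*, *Atf3*, *Klf6* and *Klf10*. Tumor 26044 was thus the highest of the 4 for *Etv4* and *Etv5* but not for *Etv1*. It was the lowest for these AP-1 genes, but not for them alone. The part of its marker differences in these values was not tested either.

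**Figure D4:**
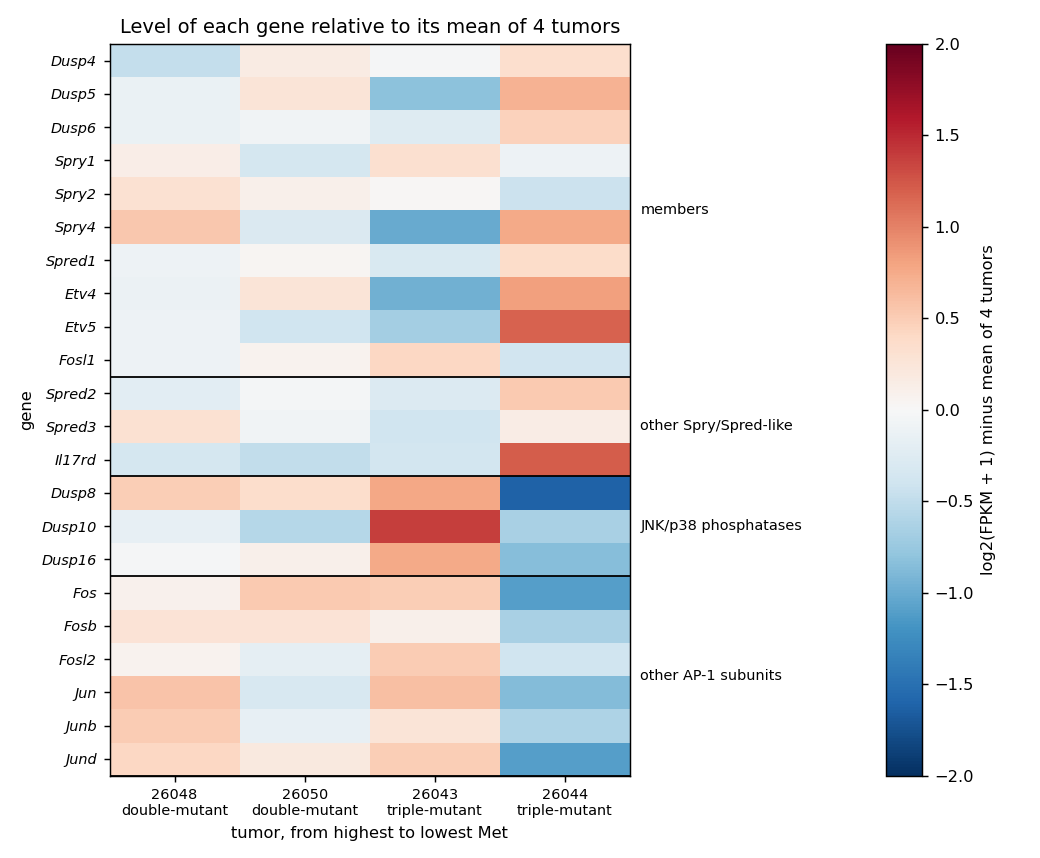
Log2(FPKM + 1) minus the mean of the 4 tumors (color, red above and blue below the mean) for the 10 members and 12 related genes, with the tumors placed from the highest to the lowest Met. In tumor 26044 most members are red, and *Dusp8*, *Dusp10*, *Dusp16* and the AP-1 genes shown are blue. The related genes were chosen after their values were seen, and *Dusp1*, *Dusp2*, *Dusp7*, *Dusp9* and *Etv1* are not shown.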

How the data were processed

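PolyA mRNA of 2 triple-mutant and 2 double-mutant tumors was sequenced by the authors as 50-bp single-end reads. Per the methods and the submitters' processing notes, reads were aligned with TopHat2 2.0.10 and Bowtie 0.12.9 on mm10, and the deposited FPKM of each gene, with the bounds of an interval in the same unit, came from Cufflinks 2.1.1. The annotation and the use of strand are not given in the sources used here. Read counts and the authors' DESeq2 results were not used here.

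The 4 tables were joined on symbol and position (23746 rows, 23284 symbols). Starts were raised by 1 so that coordinates count from 1 on GRCm38 (mm10). Of these rows, 12752 reached 1 FPKM in 2 or more tumors, and their log2(FPKM + 1) entered a linear model in R 4.3.3 (limma 3.58.1, lmFit and eBayes, trend on). The contrast is triple minus double mutant, p-values were adjusted over all genes by Benjamini-Hochberg, and the threshold was 0.05. Log2 fold changes on this scale understate changes of low genes. Depth per tumor is unknown, since low values showed no plain steps of whole reads. That the tumors are separate animals is not stated in the labels, and p-values measure the spread between these tumors. The fit was tested on simulated data with the same spread for every gene. At the threshold it found 100% of changes of 4 log2 units but 26% of changes of 1 log2 unit. These shares do not carry over to the tumors, where spread differs between genes. There 0 genes passed, with *Met* at -6.77 and *Fgfr2* at 4.42 log2 units. The largest change of a tested member was 0.49, so changes of that size would mostly be missed.

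The members and lists were chosen with earlier results of these data known. Named genes were the members, *Met*, *Tnfrsf11a*, 4 further genes of an output set and, per list, the 3 largest changes without overlap of genotypes. 1 gene that this rule picks is not reported here. *Lsm8* was matched by its older symbol. Python 3.11.15, pandas 2.3.3 and matplotlib 3.10.9 were used for tables and plots.

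Alternatives were TPM, quantile normalization, the interval midpoint, no trend, rows of status OK, a pseudocount of 0.1, a filter of 5 FPKM or none, and leaving out each tumor. Scaling by median ratios was added after seeing the data.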

Additional observations from a re-analysis of the deposited data

How the results depend on the processing

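In none of 13 alternatives did a member pass the threshold in limma, and the count of members stayed at 0. The count over all genes was 6 with quantile normalization, 5 without the trend and 1 with the interval midpoint, against 0 in the main setting. With TPM, 0 members shared the order of tumors of *Met* and 0 tested members were without overlap of genotypes. The count of members highest in tumor 26044 stayed at 7 under the 4 alternatives that can change the order of tumors within a gene (TPM, quantile normalization, the interval midpoint and median-ratio scaling). No fold change of a tested gene named by the rule reversed under these or with a pseudocount of 0.1, while the other filters and the fit without the trend leave fold changes as they are. When each tumor was left out in turn, the log2 fold change ran from -0.89 to 0.63 for *Dusp5*, from -0.15 to 0.56 for *Dusp6*, from -0.03 to 0.47 for *Spry1*, from -1.14 to 0.63 for *Spry4*, from -0.28 to 0.39 for *Spred1*, from -1.04 to 0.74 for *Etv4*, from -0.44 to 1.43 for *Etv5*, from -0.07 to 0.79 for *Epha2* and from -0.33 to 0.63 for *Epha4*. *Dusp6* and *Etv5* changed sign only without tumor 26044, while *Dusp5* and *Etv4* did so without 26043 or 26050, *Spry4* without 26043 or 26048, *Spred1* without 26044 or 26048, *Spry1* without 26050, and *Epha2* and *Epha4* without 26044 or 26050. In the same runs between 0 and 1 members had neighbors past 0.5 log2 units, and *Spry2* (-0.63 to -0.18) and *Met* (-8.32 to -5.22) stayed below 0. *Dusp4* ran from 0 without tumor 26048 to 0.64 without tumor 26050. The cause of these changes was not tested beyond the tumor left out. No paired analysis was possible because the tumor numbers in the labels are not shared between genotypes and, although the study describes the females as littermates, which tumors belong together is not given. The number of tumors, 2 per genotype, limits the precision, and depth is unknown.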
